A study of Mus musculus with 9 samples.

Results

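The Bcl2 family genes described here are 10 genes chosen by name: Bcl2, Bcl2l1, Mcl1, Bcl2a1b and Bcl2a1d, which promote survival, Bcl2l11, Pmaip1 and Bbc3, which encode BH3-only activators of death, and the effectors Bax and Bak1. All 10 of 10 were found by symbol among 55573 gene identifiers and all 10 had enough counts to be tested, among 13328 genes. The source was splenic CD4+ T cells of B6 mice, studied by RNA sequencing. The groups were 3 naive libraries of cells that were not activated, 3 libraries of cells activated for 3 hours at 37 °C and 3 libraries of cells activated for 3 hours at 39 °C, a febrile temperature. The activating plates carried anti-CD3, which triggers the T cell receptor complex, and anti-CD28, which triggers costimulation. The labels name no genetic change in any group and no age. Whether replicate libraries are separate mice or separate cultures is not given, so a p-value reflects the spread of these libraries alone, and that spread may be technical. The design text has CD4+ T cells isolated and then activated, while the growth protocol has spleen cells in the culture, so the point at which other cells were removed is uncertain. Whether naive cells were also held in medium is not given.

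The Bcl2 family controls whether the outer mitochondrial membrane is opened. The pro-survival proteins bind and restrain the effectors Bax and Bak1, and BH3-only proteins, switched on by stress or by loss of survival signals, bind the pro-survival proteins or the effectors. Open effector pores release cytochrome c, which with Apaf1 activates caspases. In T cells Bcl2 and Mcl1 are known to keep resting cells alive, with interleukin 7 as a supporting signal, while Bcl2l1 and the Bcl2a1 genes are known to be switched on through the T cell receptor and CD28, and Bcl2l11 is known for the death of lymphocytes.

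The BH3 core, the stretch that pro-apoptotic members insert into the groove of pro-survival ones, is shared across the family. It is shown because it is the contact at which the classes of the family meet. The coding stretches below are from GENCODE M21 transcripts in the direction of translation, with the codons for the conserved leucine, glycine and aspartate in capitals.
Bcl2: CTCcgccgggctGGGGAT
Bcl2l1: CTGagagaggcaGGCGAT
Mcl1: CTGcggcgcgtgGGCGAC
Bcl2l11: CTGcggcggatcGGAGAC
Bax: CTCcggcgaattGGAGAT
Bak1: CTTgctctcatcGGAGAT
Each of these 6 genes held the pattern once. The same letters were not found in the coding sequences of Bcl2a1b, Bcl2a1d and Bbc3. The search asked for exactly this leucine, glycine and aspartate, so a miss does not show that a gene lacks a BH3 core. The stretches of Bcl2l11 (codons 150 to 155 of 196) and Bax (63 to 68 of 192) are positions in the longest complete coding sequence of each gene, which was used throughout.

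The Bcl2a1 genes are near-identical copies, and the counting of reads that fit several of them bears on their values. Bcl2a1b and Bcl2a1d differ at 6 of 516 coding bases (98.8% identity) and at 4 of 172 codons. The first 90 coding bases of 3 copies are shown, since 6 of the 12 bases that vary among the 3 lie there, in capitals.
Bcl2a1a: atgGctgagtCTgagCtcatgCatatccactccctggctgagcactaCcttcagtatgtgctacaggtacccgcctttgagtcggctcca
Bcl2a1b: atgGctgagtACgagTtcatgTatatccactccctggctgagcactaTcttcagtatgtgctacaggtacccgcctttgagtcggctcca
Bcl2a1d: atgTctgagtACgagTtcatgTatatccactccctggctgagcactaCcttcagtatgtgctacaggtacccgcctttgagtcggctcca
Of the windows of 50 bases in the Bcl2a1b and Bcl2a1d transcripts, 20.8% and 20.5% occur in no other annotated gene, and of windows of 100 bases 43.2% and 45.3% do. For Bcl2l1, Mcl1, Pmaip1 and Bbc3 the share is 100% at both lengths. How the deposited counts treated shared reads is not given in the sources used here, so the split between the Bcl2a1 copies and their levels per length are uncertain.

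The members lie on several chromosomes of GRCm38. Bcl2 is at chr1:106538178-106714274 (minus strand), Bcl2l1 at chr2:152780668-152831728 (minus), Bcl2l11 at chr2:128126038-128162547 (plus) and Mcl1 at chr3:95658788-95663176 (plus). Bcl2a1d is at chr9:88723285-88731914 (minus) and Bcl2a1b at chr9:89199209-89207827 (plus). Bbc3 is at chr7:16308393-16318205 (plus), Bax at chr7:45461697-45466898 (minus) and Bak1 at chr17:27019810-27029009 (minus). Bcl2, Bcl2a1b, Bax and Bak1 overlap other annotated genes. Bak1 shares 18.2% of its exon bases with Ggnbp1 on the opposite strand, and Bcl2a1b shares 49.1% with Gm29094 on its own strand. The overlapping genes held 38 counts beside 17738 for Bcl2, 168 and 6 beside 3122 for Bak1 and 0 beside Bax and Bcl2a1b. The strand setting of the counting is not given, so reads of Bcl2 or Bak1 and their opposite-strand partners cannot be told apart. Bax shares 12.2% of its exon bases with Gm45808 on its own strand. How reads in bases shared on the same strand were counted is not given either. A count of 0 for the partner therefore does not show that Bax and Bcl2a1b kept these reads, and their levels per length are uncertain.

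The libraries held 12647692 to 17605549 counts. Between the replicates of a group, counts differed by more than sampling noise in every pair, with a chi-square per gene of 2.14 to 43.6 where sampling noise alone gives about 1, and with the naive libraries 1 and 2 the farthest apart. Each of the 8 activation genes checked was higher than in naive cells at both temperatures. Markers of other spleen cells moved with activation. For B cells, 10 markers summed to 760 to 909 CPM (a library's counts brought to the same total, after TMM normalisation) in naive libraries, 238 to 246 CPM at 37 °C and 252 to 265 CPM at 39 °C. The sum of 7 erythroid and platelet markers was 134 to 225, 2.79 to 3.22 and 2.94 to 4.18 CPM, with Pf4 at 0 in naive libraries and Pf4 and Ppbp at 0 in both activated groups. The sum of 11 myeloid markers was 20.9 to 27.1, 9.86 to 12.5 and 10.1 to 13.7 CPM, that of 8 neutrophil markers 2.17 to 4.26, 0.138 to 0.214 and 0.125 to 0.318 CPM, and that of 6 NK markers 39.1 to 52.5, 23.7 to 25.6 and 20.2 to 22.2 CPM. Both CD8 T cell markers together had 25.8 to 36.1, 13.5 to 15.1 and 12.6 to 14.6 CPM. The 6 stroma and endothelium markers summed to 296 to 318, 131 to 136 and 157 to 162 CPM, most of it Pecam1, with Kdr at 0 throughout. Of these, Col1a1, Col1a2 and Col3a1 had 106, 110 and 80 counts in the naive library 2 and 0 to 6 counts in each other library. CD4 T cell markers summed to 5481 to 7089, 5551 to 5872 and 5920 to 6424 CPM. Within this sum the 10 genes moved both ways. By edgeR, 1 was higher and 5 lower than in naive cells at 37 °C (log2 fold changes -1.4 to 1.24). At 39 °C 1 was higher and 4 lower, so the sum does not show a steady T cell content. The part of other cells in the results against naive cells was not tested, and in bulk RNA fewer cells of a type cannot be told apart from less RNA per cell.

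Against naive libraries, 7 of the 10 genes were higher and 2 lower after activation at 37 °C. This was read from an edgeR quasi-likelihood test with Benjamini-Hochberg adjustment over all 13328 genes and 0.05 as the threshold. In that test 62.7% of all genes were called, 30.9% higher and 31.8% lower, so most genes moved and 9 of 10 is read against that. At 39 °C 6 were higher and 1 lower, where 58.9% of all genes were called (29.2% higher, 29.8% lower). With a call also asked to be at least 1.5-fold, 6 members remained at each temperature. Over all 13328 genes, 5258 calls remained at 37 °C and 4753 at 39 °C, so the shares above do not apply here. Bbc3 (1.45-fold), Pmaip1 (1.37-fold) and Bak1 (1.26-fold) dropped out at 37 °C and Bcl2 (1.33-fold), the 1 lower member, at 39 °C. The median log2 fold change of the 10 was 0.63 at 37 °C and 0.67 at 39 °C, beside -0.0025 and -0.0027 over all genes. Both comparisons use the same naive libraries. Between 39 °C and 37 °C none of the 10 was called, where 0.758% of all genes were, 0.135% higher and 0.623% lower. Below, ± gives the SD over 3 libraries beside a level and the standard error of the fit beside a log2 fold change, and levels are in CPM unless given per kb of exon.

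**Figure D1:**
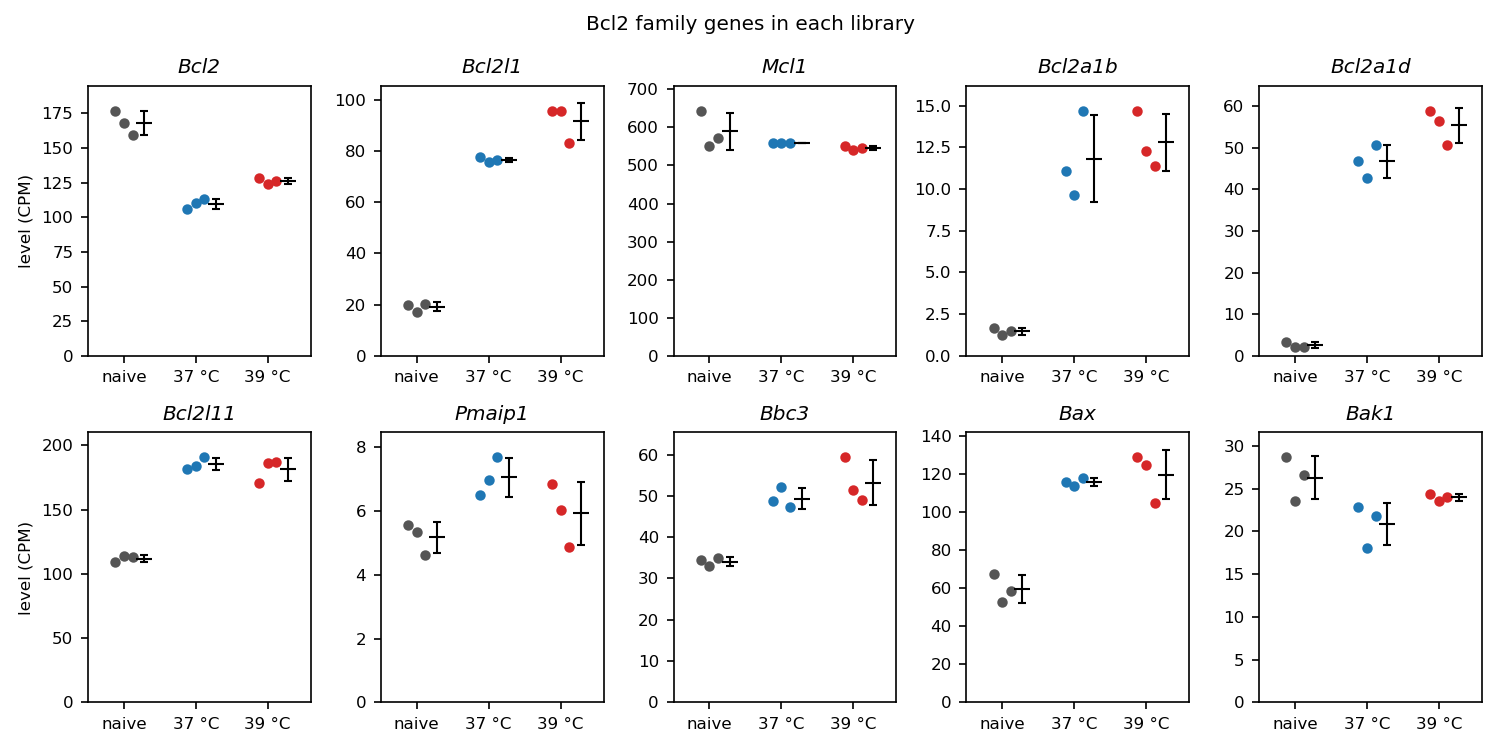
Level of each member (y axis, CPM, from 0) in the 3 naive, 3 37 °C and 3 39 °C libraries (x axis). Points are libraries and the black bar beside them is the mean with the SD. Bcl2l1, Bcl2a1b, Bcl2a1d, Bcl2l11, Bbc3 and Bax are higher in all 6 activated libraries than in any naive one, and Bcl2 is lower.

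Among the pro-survival genes the Bcl2a1 copies rose most. Bcl2a1d, an A1 protein gene of blood cells, had 3.37, 2.10 and 2.20 CPM in naive libraries, 46.9, 42.6 and 50.6 CPM at 37 °C and 58.9, 56.5 and 50.7 CPM at 39 °C. No activated library came near the naive ones, and the lowest at 39 °C lay just above the highest at 37 °C. The log2 fold change was 4.20 ± 0.15 at 37 °C (adjusted p = 4.33e-10, edgeR) and 4.44 ± 0.15 at 39 °C (adjusted p = 2.82e-10, edgeR). Bcl2a1b, its near copy, had 1.65, 1.26 and 1.52 CPM in naive libraries, 11.1, 9.65 and 14.70 CPM at 37 °C and 14.70, 12.30 and 11.40 CPM at 39 °C. Its naive values come from 18 to 27 counts per library. It rose by a log2 fold change of 2.98 ± 0.21 and 3.11 ± 0.21 (adjusted p = 1.52e-07 and 1.08e-07, edgeR). With the counts of the Bcl2a1 copies summed before the fit, the log2 fold changes were 3.848 at 37 °C and 4.067 at 39 °C, both called. Bcl2a1a had 2, 4 and 4 counts in the 3 naive, 3 37 °C and 3 39 °C libraries together and Bcl2a1c had 0, 3 and 1, so neither was tested.

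Bcl2l1, which encodes Bcl-xL, had 19.9, 17.2 and 20.4 CPM in naive libraries, 77.4, 75.7 and 76.5 CPM at 37 °C and 95.7, 95.7 and 83.0 CPM at 39 °C. The 3 groups did not overlap. The log2 fold change was 1.99 ± 0.086 at 37 °C (adjusted p = 2.23e-09, edgeR), which is 3.98-fold, and 2.25 ± 0.086 at 39 °C (adjusted p = 8.66e-10, edgeR), which is 4.76-fold.

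Bcl2, the founding survival gene of the family, went the other way. Its levels were 177, 168 and 159 CPM in naive libraries, 106, 110 and 113 CPM at 37 °C and 128, 124 and 126 CPM at 39 °C. Naive libraries were highest, those at 39 °C in between and those at 37 °C lowest, with no overlap. It fell by 0.62 ± 0.064 on the log2 scale at 37 °C (adjusted p = 4.79e-06, edgeR) and by 0.42 ± 0.063 at 39 °C (adjusted p = 0.00013, edgeR). B cell markers fell between the same groups, and their part in this fall was not tested.

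Mcl1, a short-lived survival protein's gene, was the most abundant of the 10 per length in every group. It had 644, 551 and 573 CPM in naive libraries, 558, 560 and 558 CPM at 37 °C and 551, 541 and 546 CPM at 39 °C. Its naive libraries spread widely and overlapped the range at 37 °C, and those at 39 °C lay just below the others. The log2 fold change was -0.078 at 37 °C (95% interval -0.24 to 0.081) and -0.11 at 39 °C (-0.27 to 0.048), neither of them called.

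The make-up of the pro-survival genes, as shares of their summed CPM per kb, shifted between naive and activated cells. Mcl1 went from 86.3% ± 0.23 (SD, n = 3) of the sum in the naive group to 62.7% ± 1.97 at 37 °C and 58.5% ± 1.75 at 39 °C. Bcl2a1d went from 1.47% ± 0.278 to 20.7% ± 1.19 and 23.5% ± 1.08. Bcl2 went from 9.20% ± 0.521 to 4.59% ± 0.151 and 5.03% ± 0.148, and Bcl2l1 from 2.10% ± 0.166 to 6.41% ± 0.172 and 7.29% ± 0.402. The ratio of Bcl2l1 to Bcl2 per length was 0.225, 0.205 and 0.256 in naive libraries, 1.46, 1.37 and 1.35 at 37 °C and 1.5, 1.54 and 1.32 at 39 °C. Per length, Bcl2l1 was thus below Bcl2 in every naive library and above it in every activated one. In CPM, without division by length, Bcl2l1 stayed below Bcl2 in every activated library too. It had 75.7 to 77.4 CPM beside 106 to 113 for Bcl2 at 37 °C, and 83.0 to 95.7 beside 124 to 128 at 39 °C. These shares are descriptions, without a test, and depend on the length used: without division by length Bcl2a1d had 0.324%, 5.81% and 6.65%. The sum of the 5 genes was 200 ± 16.2, 261 ± 7.65 and 273 ± 9 CPM per kb.

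**Figure D2:**
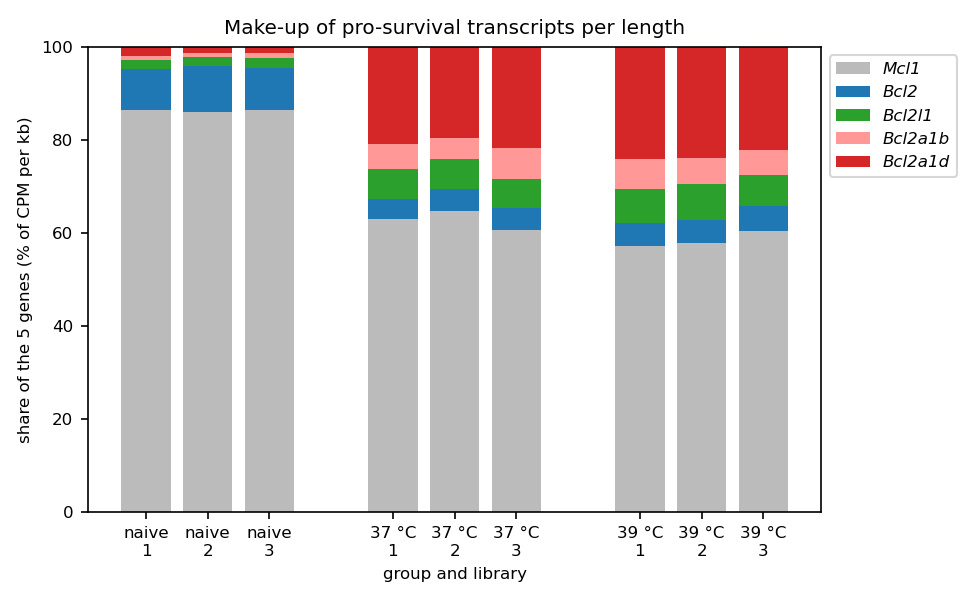
Share of each pro-survival gene in the summed CPM per kb of the 5 genes (y axis, percent), 1 bar per library (x axis, group and library). Mcl1 takes 86.1 to 86.5% of each naive bar and 57.1 to 64.6% of each activated bar, and Bcl2a1d 1.30 to 1.79% and 19.5 to 24.2%.

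Among the BH3-only genes Bcl2l11, which encodes Bim, had 109, 114 and 113 CPM in naive libraries, 182, 184 and 191 CPM at 37 °C and 171, 186 and 187 CPM at 39 °C. Both activated groups lay above the naive one and overlapped each other. It rose by a log2 fold change of 0.73 ± 0.063 at 37 °C (adjusted p = 9.37e-07, edgeR) and 0.70 ± 0.063 at 39 °C (adjusted p = 1.56e-06, edgeR). Bbc3, which encodes Puma, had 34.4, 33.0 and 34.9 CPM in naive libraries, 48.7, 52.1 and 47.2 CPM at 37 °C and 59.4, 51.3 and 49.0 CPM at 39 °C. It rose by 0.53 ± 0.084 and 0.64 ± 0.083 on the log2 scale (adjusted p = 0.00015 and 3.42e-05, edgeR). Pmaip1, which encodes Noxa, was low, with 70 to 110 counts per library. It had 5.57, 5.33 and 4.62 CPM in naive libraries, 6.5, 6.96 and 7.69 CPM at 37 °C and 6.85, 6.04 and 4.88 CPM at 39 °C. The libraries at 37 °C were above the naive ones and those at 39 °C overlapped both groups. Pmaip1 rose by 0.45 ± 0.16 at 37 °C (adjusted p = 0.0244, edgeR), and at 39 °C its log2 fold change of 0.20 was not called (adjusted p = 0.287, edgeR). Its call at 37 °C was lost by DESeq2 (adjusted p = 0.0679), without the naive library 3 (0.0934), without the 37 °C library 2 (0.0516) and without the 37 °C library 3 (0.0846).

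Of the effectors, Bax had 67.6, 52.6 and 58.6 CPM in naive libraries, 116, 114 and 118 CPM at 37 °C and 129, 125 and 105 CPM at 39 °C. Both activated groups were above the naive one. It rose by a log2 fold change of 0.96 ± 0.099 at 37 °C (adjusted p = 4.72e-06, edgeR) and 1.01 ± 0.099 at 39 °C (adjusted p = 3.28e-06, edgeR). Bak1, which encodes the other pore former, had 28.7, 23.6 and 26.6 CPM in naive libraries, 22.8, 18.1 and 21.8 CPM at 37 °C and 24.4, 23.6 and 24.0 CPM at 39 °C. Its libraries at 37 °C were below the naive ones, and those at 39 °C were within the naive range. It fell by 0.33 ± 0.1 on the log2 scale at 37 °C (adjusted p = 0.014, edgeR), and the difference of -0.13 at 39 °C was not called (adjusted p = 0.276, edgeR). Without the 37 °C library 2 the Bak1 call was lost (log2 fold change -0.234, adjusted p = 0.079, edgeR). The ratio of Bax to Bak1 per length was 3.60, 3.40 and 3.37 in naive libraries, 7.79, 9.58 and 8.23 at 37 °C and 8.11, 8.09 and 6.71 at 39 °C. Each activated library thus had a higher ratio than every naive one.

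Whether the febrile temperature altered these genes during activation was read from the 39 °C and 37 °C libraries. None of the 10 genes was called by edgeR or by DESeq2, and 3 had an unadjusted p under 0.05, where 7.96% of all genes did. Bcl2l1 was higher at 39 °C by 0.26 on the log2 scale (95% interval 0.085 to 0.43, adjusted p = 0.295, edgeR). Bcl2 was higher by 0.20 (0.06 to 0.34, adjusted p = 0.324, edgeR) and Bcl2a1d by 0.25 (0.012 to 0.48, adjusted p = 0.596, edgeR). The libraries of the 2 temperatures did not overlap for Bcl2, Bcl2l1, Mcl1, Bcl2a1d and Bak1. How many of all genes also lacked overlap was not counted, so this does not show a difference by temperature. Mcl1 is among the 5 with a log2 fold change of only -0.033. In a fit of the 6 libraries alone Bcl2 (0.200, adjusted p = 0.039, edgeR) and Bcl2l1 (0.256, adjusted p = 0.0396, edgeR) were called. The other intervals were -0.19 to 0.13 for Mcl1, -0.22 to 0.47 for Bcl2a1b, -0.17 to 0.10 for Bcl2l11, -0.58 to 0.091 for Pmaip1, -0.07 to 0.29 for Bbc3, -0.16 to 0.26 for Bax and -0.029 to 0.43 for Bak1. Each holds 0, and they do not show that the temperatures act alike. Of 10 CD4 T cell markers 1 was called between the temperatures, Thy1, higher by 0.45 at 39 °C and named after its value was seen, and of 10 B cell markers 0 were called by edgeR, with 2 at an unadjusted p under 0.05.

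**Figure D3:**
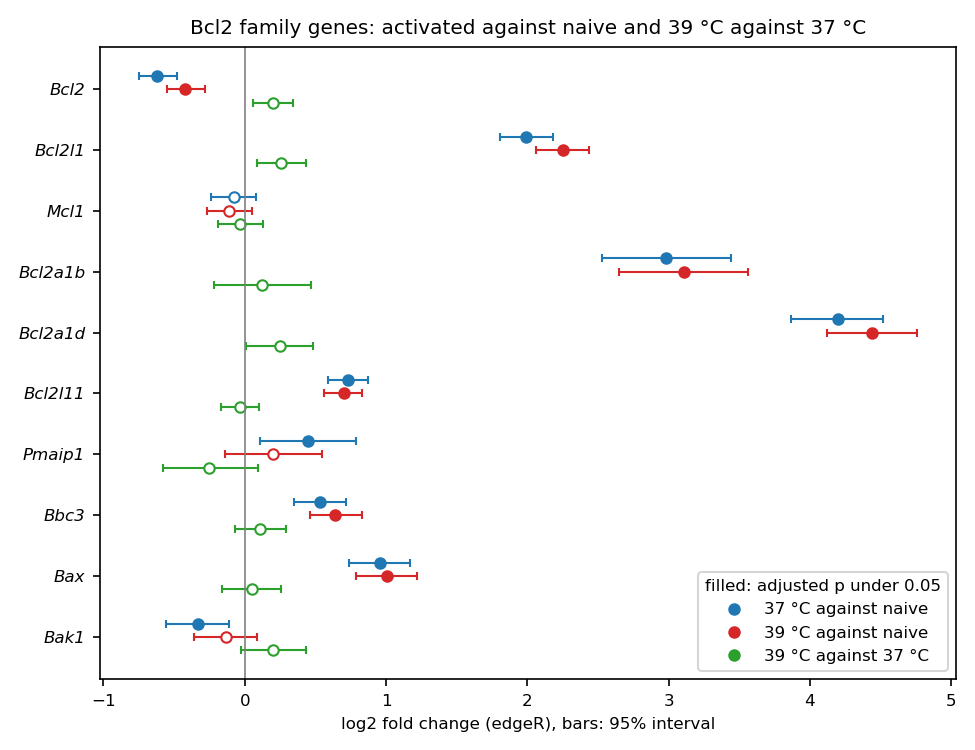
Log2 fold change (x axis, edgeR) of each member (y axis) for 37 °C against naive, 39 °C against naive and 39 °C against 37 °C, with 95% intervals as bars. Filled points passed an adjusted p of 0.05: 9, 7 and 0 of the 10. The changes against naive cells run from -0.62 for Bcl2 to 4.44 for Bcl2a1d.

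Ordered by CPM per kb, Mcl1 was first in every group, at 172 ± 14.3, 163 ± 0.44 and 160 ± 1.43 CPM per kb in the naive, 37 °C and 39 °C groups. Bax was second, at 33.4 to 42.9, 72.1 to 74.6 and 66.8 to 82.1 CPM per kb over the libraries of each group. Below these, naive cells had Bcl2 (18.3), Bbc3 (16.1), Bcl2l11 (13.9), Bak1 (10.9), Bcl2l1 (4.18), Bcl2a1d (2.96), Pmaip1 (1.89) and Bcl2a1b (1.81) as mean CPM per kb. In naive libraries neighbours in this order overlapped for Bcl2l1 with Bcl2a1d and for Pmaip1 with Bcl2a1b. After activation Bcl2a1d was the third, at 54.1 ± 4.65 CPM per kb at 37 °C and 64.2 ± 4.92 at 39 °C, where it overlapped Bax. It was followed by Bbc3 (23.2 and 25.1 at 37 °C and 39 °C) and Bcl2l11 (23.2 and 22.6), which overlapped each other, and by Bcl2l1 (16.7 and 19.9), Bcl2a1b (14.4 and 15.7) and Bcl2 (12 and 13.7). Bcl2a1b overlapped Bcl2 at both temperatures, and Bcl2l1 at 37 °C. Bak1 (8.69 and 9.96) and Pmaip1 (2.58 and 2.17) were lowest.

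The genes whose levels over the 9 libraries lay closest to each member were found by the Euclidean distance of centred log2(CPM + 0.5) among 8995 genes, as a description. Bcl2a1d was nearest to Tnf, the tumour necrosis factor gene (distance 0.289), and Bcl2a1b to Cd69, an early activation marker (0.485). Bcl2l1 was nearest to Orai1, a calcium channel gene (0.302), Bcl2 to Cyb561a3 (0.0962), Mcl1 to Pabpc1, a poly(A) binding protein gene (0.0674), and Bcl2l11 to Tox4 (0.0906). Pmaip1 was nearest to Rcan1, a calcineurin regulator (0.316), Bbc3 to Ninj1 (0.172), Bax to Anp32b (0.16) and Bak1 to Tuba1a, an alpha tubulin gene (0.156). The next nearest were Spry1 for Bcl2a1d (0.451), Srm for Bcl2a1b (0.493), Itm2a for Bcl2l1 (0.331), Ap3m1 for Bcl2 (0.118) and Mrps9 for Mcl1 (0.0803). For Bcl2l11, Pmaip1, Bbc3, Bax and Bak1 they were Nup160 (0.108), Timm29 (0.362), Srsf9 (0.178), Jagn1 (0.177) and Zfp622 (0.166).

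Since 6 members rose in both activated groups, the 250 bases before their RefSeq starts (GRCm38.p6) were searched on both strands for the NF-kB motif, FoxO (TGTTTAC), AP-1 (TGACTCA), the p53 response element (a single decamer) and the NFAT core (GGAAAA). The NF-kB and NFAT motifs share letters and can overlap. The table held 14 such windows for 9 members and no entry for Pmaip1. The stretches of 30 bases below hold the matches to the NF-kB, FoxO or p53 motif, except that a further NF-kB match of Bbc3, on the reverse strand and shifted by 1 base, overlaps the printed one and is not shown. They are given 5′ to 3′ on the gene's strand and with the match in capitals.
Bcl2l1 (NF-kB), chr2:152830938-152830967, minus strand: tgtttgtgGGGGGTCTCCagcatacgcctc
Bbc3 (NF-kB), chr7:16309436-16309465, plus strand: tctggctgccGGGAAACCCCccgcgccgag
Bbc3 (FoxO), chr7:16310083-16310112, plus strand: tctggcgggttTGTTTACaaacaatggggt
Bcl2l11 (FoxO), chr2:128125800-128125829, plus strand: aagacactaggGTAAACAcgccggggtggg
Bax (p53 decamer), chr7:45467080-45467109, minus strand: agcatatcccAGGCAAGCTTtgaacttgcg
NF-kB matched 2 of the 9 members, FoxO 2, the p53 decamer 1, AP-1 0 and the NFAT core 4 (Bcl2l1, Bcl2a1b, Bcl2a1d and Bak1). Of 32851 promoters 3.90% held the NF-kB motif, 3.17% FoxO, 4.46% AP-1, 7.13% the p53 decamer and 20.4% the NFAT core. These shares are per single promoter, whereas a member counted if any of its windows matched. The counts of members and the shares are therefore not directly comparable. A match is a description of letters in this window, and the NF-kB and FoxO matches of Bcl2l1, Bbc3 and Bcl2l11 each lie at 1 of several starts of the gene, while the NFAT core lies at 2 of 3 starts of Bcl2l1.

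Regulators that are known to act on these genes were followed in a list of 21. At 37 °C 15 of them rose and 3 fell, and at 39 °C 13 rose and 4 fell. These counts, and those of each list below, are read against 62.7% and 58.9% of all genes called at 37 °C and 39 °C. The NF-kB genes Nfkb1 (325 ± 25.8 CPM in naive cells and 1758 ± 28.2 at 37 °C) and Rel (121 ± 15.6 and 630 ± 32.8 CPM) rose by 2.43 ± 0.081 and 2.38 ± 0.098 on the log2 scale. Il2ra, the interleukin 2 receptor chain gene, and Myc rose by 2.97 ± 0.063 and 2.62 ± 0.074. Trp53, which encodes p53, rose by 0.46 ± 0.065, from 192 ± 11.2 to 263 ± 3.59 CPM. Il7r, the receptor for the survival cytokine interleukin 7, fell by 0.82 ± 0.070, and Foxo1, a quiescence factor gene chosen here after its values were seen, fell by 0.94 ± 0.060. Foxo3 had -0.17 ± 0.096 at 37 °C, not called, and fell by 0.28 ± 0.096 at 39 °C (adjusted p = 0.0267, edgeR). That call was lost without the naive library 2 or 3 or the 39 °C library 1 or 3 and with the 6 libraries alone (adjusted p 0.0687 to 0.0927), and without the naive library 1 Foxo3 was called lower at 37 °C too (-0.278). Between temperatures 1 of the 21 was called: Ddit3, which encodes the stress factor CHOP, had 37.9 ± 0.857 CPM at 37 °C and 57.1 ± 2.69 at 39 °C and was higher by 0.59 ± 0.084 (adjusted p = 0.00558, edgeR). CHOP is known to act on Bcl2l11 and Bcl2, whose own values between temperatures are given above.

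Of 14 further Bcl2 family genes 7 had enough counts. At 37 °C Bid, a BH3-only gene cut by caspase 8, was the 1 that rose (17.6 ± 1.48 to 38.7 ± 0.355 CPM, log2 fold change 1.14 ± 0.082). Bad fell by 1.08 ± 0.14 and Bmf by 1.07 ± 0.14, both BH3-only genes. Bik fell by 0.96 ± 0.36 at 37 °C on 27 counts over 3 libraries, a call that was lost in 7 of 17 alternative fits (adjusted p up to 0.172): by DESeq2, with the 6 libraries alone and without the naive library 1 or 3 or any 37 °C library. At 39 °C its value of -0.17 was not called. Bcl2l2, Bcl2l12 and Bcl2l13 were not called in any of the comparisons. At 39 °C Bid, Bad and Bmf had log2 fold changes against naive cells of 1.03, -1.08 and -0.87, and the other 4 tested were not called. None of the 7 was called between temperatures, by edgeR. Below the filter, Bcl2l14 had 43, 3 and 5 counts in the naive, 37 °C and 39 °C libraries together, while Hrk, Bok and Bcl2l15 had 0 to 16 per group.

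Downstream of the pore, 6 apoptosome and caspase genes were followed, and all 6 were called in both activated groups, 2 higher and 4 lower. Of all genes, 62.7% were called at 37 °C and 58.9% at 39 °C. Cycs, which encodes cytochrome c, rose from 37.9 ± 5.28 to 99.2 ± 8.45 CPM at 37 °C (1.39 ± 0.11). Apaf1, the scaffold that cytochrome c binds, rose by 0.27 ± 0.086 at 37 °C and 0.54 ± 0.086 at 39 °C. Its call at 37 °C was lost without the naive library 3 (adjusted p = 0.0698, edgeR) or the 37 °C library 1 (0.0601), and between temperatures it was called with the 6 libraries alone (0.264, adjusted p = 0.0284, edgeR). Casp8, the initiator of the death receptors, fell from 164 ± 10.8 to 104 ± 1.89 CPM at 37 °C (by 0.66 ± 0.067), Casp9, the initiator on the apoptosome, fell by 0.45 ± 0.095 and Casp2 fell by 0.34 ± 0.062. By edgeR none of the 6 was called between temperatures, with 1 at an unadjusted p under 0.05.

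Of 7 inhibitor of apoptosis genes and their antagonists, 3 rose and 1 fell in each activated group, beside the same shares of all genes. Birc3, which encodes the inhibitor cIAP2, rose from 168 ± 4.87 to 296 ± 11.1 CPM at 37 °C (0.82 ± 0.066) and Xiap by 0.48 ± 0.091, while Birc2 fell by 0.38 ± 0.068. Diablo, which encodes the antagonist Smac, rose by 0.91 ± 0.19. None of the 7 was called between temperatures.

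Of 9 death receptor genes 4 rose and 4 fell at 37 °C, and 4 rose and 2 fell at 39 °C. Fasl, the ligand gene, rose by 1.18 ± 0.10 at 37 °C, Cflar, which encodes the caspase 8 inhibitor FLIP, by 0.94 ± 0.080 and Tnfrsf10b, a TRAIL receptor gene, by 0.78 ± 0.081. Tnfsf10, the TRAIL gene, fell by 1.77 ± 0.16. Fas, the receptor for Fasl, had 37.0, 30 and 31.2 CPM in naive libraries, 71.6, 69.3 and 71.5 CPM at 37 °C and 49.5, 47.7 and 45.3 CPM at 39 °C. The libraries at 39 °C lay between the others, and Fas was the 1 of 9 called between temperatures, at -0.58 ± 0.082 (adjusted p = 0.00558, edgeR). Without the 39 °C library 2 it was not called (adjusted p = 0.0519, edgeR).

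**Figure D4:**
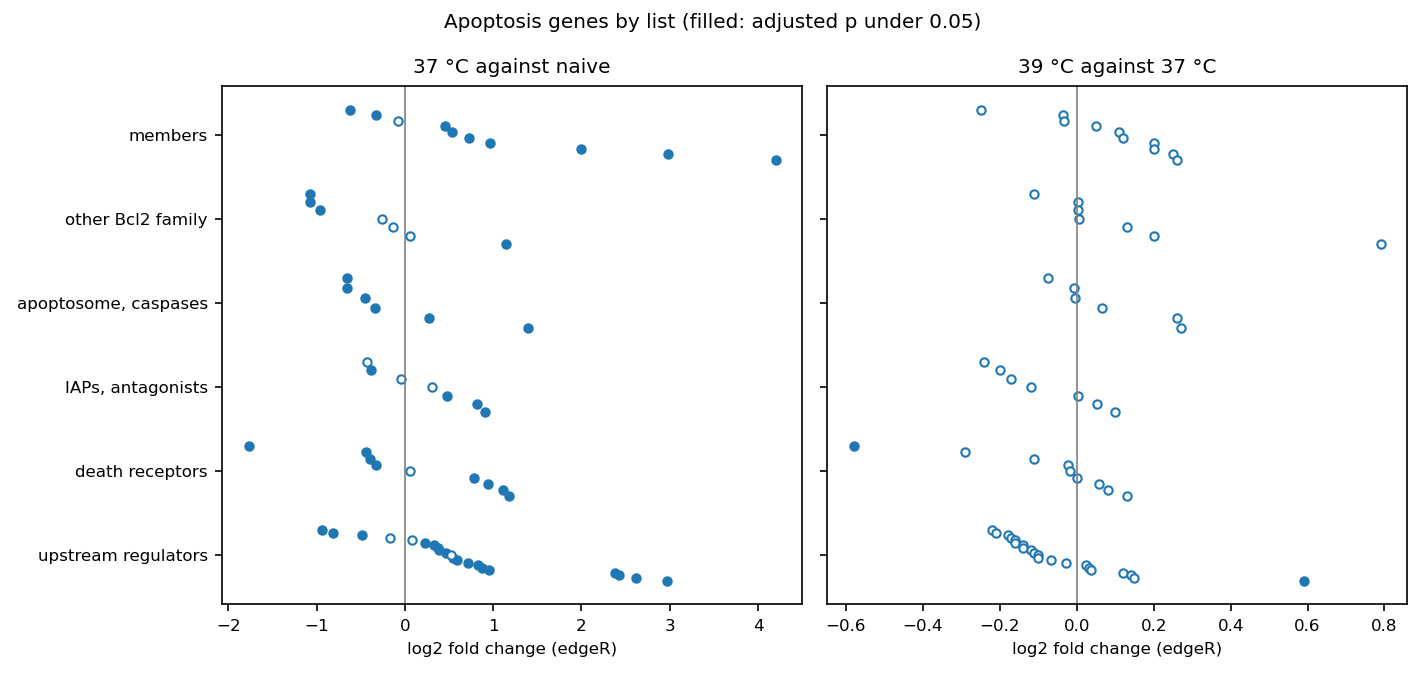
Log2 fold changes (x axis, edgeR) of the tested genes of each list (y axis), 1 point per gene, for 37 °C against naive (left) and 39 °C against 37 °C (right, another scale). Filled points passed an adjusted p of 0.05. On the right Ddit3 is the filled point above 0 and Fas the 1 below.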

How the data were processed

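Each library was deposited as a table of raw counts of reads per gene, not normalised by the authors. GRCm38 is the build in the submitters' processing notes, which also list DESeq2, FastQC, HISAT2 and HTSeq, without a version or role. The deposited files are named in the manner of a STAR count table, a tool not in that list, and hold 1 count column without a header. The aligner and counter, annotation release and strand setting of these counts are not given in the sources used here. Per the labels' protocols, TRIzol was used for RNA and a TruSeq kit for the libraries. GENCODE M21 matched 55480 of the 55573 identifiers and gave symbols, exon lengths and GRCm38 coordinates. Groups came from the labels.

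The filter filterByExpr used a minimum count of 10 and a minimum total of 15. Kept genes were scaled by TMM and fitted with edgeR 4.0.16 in R 4.3.3, by quasi-likelihood F tests in 1 fit of all 9 libraries. The 2-sided p-values were adjusted by Benjamini-Hochberg over 13328 genes, and a call is an adjusted p under 0.05. A standard error is the log2 fold change divided by the square root of F. The fit was tested on simulated data. Levels are CPM, and comparisons between genes use CPM per kb of exon. The pseudocount for likeness was 0.5 CPM. The members and lists were chosen with earlier results of these data known. The genes named are the members, each further family gene with a count, up to 4 called genes of each other apoptosis list per comparison by smallest adjusted p, Trp53, Foxo3, Rel, Nfkb1, Ddit3, Il7r, Fas and Cflar whatever their values and the 2 genes nearest to each member with a mean of at least 5 CPM. Some listed genes are not reported here. Promoter sequences are from RefSeq (GRCm38.p6). Alternatives were RLE or library size scaling, other count filters, DESeq2 1.42.0, the 6 libraries of a comparison alone, a replicate block, a fold minimum of 1.5, summed Bcl2a1 copies and leaving out each library.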

Additional observations from a re-analysis of the deposited data

Results flagged for a closer look

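Between 39 °C and 37 °C none of the Bcl2 family members was called, and 2 reported genes of the further apoptosis lists were. Relative to naive cells, the change in each of these differed between the temperatures. Ddit3 differed by 0.59 on the log2 scale, with a rise of 0.72 at 37 °C and 1.31 at 39 °C. Fas differed by -0.58, with a rise of 1.11 at 37 °C and 0.54 at 39 °C.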

How the results depend on the processing

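Of 507 refits of the members' 30 values, 500 kept their call, 7 changed it and 0 reversed. A reversal was counted only where the sign changed with a call in either fit. Sign changes of uncalled values count as kept, as for Bax between temperatures (0.05 in the main fit, lowest -0.01). In every refit 26 of the 30 values kept the call. These refits do not include the fold minimum of 1.5, under which the members called were 6 (5 higher, 1 lower) at 37 °C and 6 (6 higher, 0 lower) at 39 °C, without Bbc3, Pmaip1 and Bak1 at 37 °C and Bcl2 at 39 °C. Of 1479 refits of 87 values of other listed genes, 1462 kept the call, 17 changed it and 0 reversed. The refits of Foxo1, Thy1 and the genes nearest to each member are not reported here. The members called between 39 °C and 37 °C were 0, and 2 with the 6 libraries alone. Over all genes, 101 were called between temperatures, 176 with genes of any count, 401 with the 6 libraries alone and 59 with the fold minimum. Leaving out 1 library gave 37 to 291: 291 without the naive library 1, 152 without the naive library 2 and 37 to 51 without any activated one. With the fold minimum, 5258 and 4753 genes were called against naive cells at 37 °C and 39 °C, beside 8354 and 7855. With a replicate block the members called were 9, 7 and 0 in the 3 comparisons, and all genes 8519, 8065 and 97. Whether the replicate numbers pair libraries across groups is not given. Of the same-number correlations 3 of 9 were over 0.1 (-0.359 to 0.577). Pairs of different numbers ran from -0.650 to 0.629, so these correlations cannot decide it. Without division by length the shares of the pro-survival sum in naive, 37 °C and 39 °C cells were 21.5%, 13.6% and 15.1% for Bcl2, 2.46%, 9.53% and 11.0% for Bcl2l1, 75.5%, 69.5% and 65.7% for Mcl1, and 0.189%, 1.47% and 1.54% for Bcl2a1b.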
